A study of Rattus norvegicus with 4 samples.

Results

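Collagen genes were followed across the cell types of a limb muscle and the eye muscles of the rat. Members were all gene symbols made of Col, a chain type number, the letter a and a chain number, which gave 42 of the 25399 genes in the count tables. Col1a2, Col6a3 and Col21a1 were not analysed here. The groups, with 1 library each, were extraocular muscles (EOM) labelled DMD, EOM labelled WT, tibialis anterior (TA) labelled DMD and TA labelled WT. All came from rats aged 12 months. TA is a limb muscle of the lower leg, EOM are the muscles that move the eye, DMD is the usual abbreviation of Duchenne muscular dystrophy and WT stands for wild-type. The dystrophin allele of the rats, and whether animals were pooled for a library, are not given in the labels. Groups follow the disease state field of the labels, and in all 4 samples the title states the opposite disease state. Reading the titles instead would exchange DMD and WT in every comparison between them below, so the libraries are called labelled DMD or labelled WT throughout. Each group is 1 library, so no difference below has a replicate check and no test between groups was possible.

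Collagens are proteins of the extracellular matrix built from 3 chains wound into a triple helix. Fibril-forming collagens such as types I, III, V and XI assemble into the fibrils that carry tension, and the fibril-associated collagens, called FACIT, sit on their surface. Type IV collagen forms the sheet-like network of basement membranes, type VI forms beaded filaments next to them, and types XV and XVIII, the multiplexins, link basement membranes to the matrix around them. In skeletal muscle, fibroblasts and fibro-adipogenic progenitors (FAPs) are the main source of fibrillar collagen, and the build-up of collagen known as fibrosis is a hallmark of Duchenne muscular dystrophy. Mutations in type VI collagen genes cause muscle disease in humans, and type XV collagen is a component of the basement membranes of muscle fibres and capillaries.

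The 6 type IV genes lie in the genome as head-to-head pairs, Col4a1 beside Col4a2, Col4a3 beside Col4a4 and Col4a5 beside Col4a6. Of the 42 members, 33 matched a RefSeq promoter entry of the rat assembly GRCr8, a window from 250 bases before to 50 bases after an annotated start, with 36 windows in all. The other 9 were Col1a1, Col2a1, Col3a1, Col6a2, Col9a3, Col12a1, Col14a1, Col22a1 and Col25a1. The windows below belong to 3 basement membrane genes described at length for vessel and satellite-like cells. They are Col4a1 at chr16:84885347-84885646 (plus strand), Col4a4 at chr9:91323528-91323827 (minus strand) and Col15a1 at chr5:66297296-66297595 (plus strand), each read 5′ to 3′ on the strand of its gene. Capitals mark the bases that the window shares with that of the neighbouring gene on the opposite strand, which is Col4a2 for Col4a1 and Col4a3 for Col4a4.
Col4a1: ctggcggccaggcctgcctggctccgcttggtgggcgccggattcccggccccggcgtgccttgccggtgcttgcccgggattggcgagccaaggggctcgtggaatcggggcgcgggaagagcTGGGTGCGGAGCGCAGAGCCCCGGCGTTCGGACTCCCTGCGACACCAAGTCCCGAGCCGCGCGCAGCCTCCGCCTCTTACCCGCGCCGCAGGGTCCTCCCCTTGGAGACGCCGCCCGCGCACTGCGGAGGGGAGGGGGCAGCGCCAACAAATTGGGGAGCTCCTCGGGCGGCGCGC
Col4a4: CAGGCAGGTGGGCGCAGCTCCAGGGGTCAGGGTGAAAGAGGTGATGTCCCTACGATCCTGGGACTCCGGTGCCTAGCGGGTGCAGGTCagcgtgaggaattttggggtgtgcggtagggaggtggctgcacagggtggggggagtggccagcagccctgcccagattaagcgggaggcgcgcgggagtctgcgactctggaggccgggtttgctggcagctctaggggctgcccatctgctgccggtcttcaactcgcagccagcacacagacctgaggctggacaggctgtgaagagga
Col15a1: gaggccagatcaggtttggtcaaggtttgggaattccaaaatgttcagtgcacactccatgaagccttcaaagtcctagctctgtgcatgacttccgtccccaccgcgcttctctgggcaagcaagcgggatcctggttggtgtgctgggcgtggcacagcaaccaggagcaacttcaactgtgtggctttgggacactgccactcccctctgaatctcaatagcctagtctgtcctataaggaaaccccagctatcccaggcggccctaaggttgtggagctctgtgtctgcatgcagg
The annotated starts of Col4a1 and Col4a2 were 77 bases apart, and 176 of the 300 bases of the window served both genes. The starts of Col4a3 and Col4a4 were 413 bases apart with 88 shared bases, and those of Col4a5 and Col4a6, on chromosome X, were 1415 bases apart with none. GC content was 75.0% in the Col4a1 window, 65.3% in that of Col4a4 and 55.0% in that of Col15a1.

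Promoter motifs were searched on both strands by their letters. They were CCAAT for the CCAAT box, which binds NF-Y, then GGGCGG for the GC box of Sp1, then TATAAA for the TATA box, and last TGANTCA for the site of AP-1. None of these motifs contains another. The Col4a1 window held 2 CCAAT and 2 GGGCGG matches and no TATAAA, and the Col4a4 and Col15a1 windows held no match to any of the 4. GGGCGG occurred in 20 of the 36 member windows (55.6%), against 33.1% of all 33469 promoter windows of the same length. CCAAT occurred in 11 (30.6%, against 37.5%), TATAAA in 3 (8.33%, against 14.2%) and TGANTCA in 1, that of Col6a1 (2.78%, against 7.33%). A match is a description of these letters, and windows of paired genes share bases.

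After filtering, 2261 cells were analysed in EOM labelled DMD, 1249 in EOM labelled WT, 7964 in TA labelled DMD and 2083 in TA labelled WT. Total counts of unique molecular identifiers (UMIs) in these cells lay between 6522117 and 19269545 per library, and the median per cell was lowest in TA labelled DMD, at 1224, against 2484 to 4488 in the other libraries. Any 2 libraries shared between 0 and 5 cell barcodes. A 3′ tag of the dystrophin gene Dmd was present in all 4 libraries at 22.1 to 29.6 CPM (counts per 1000000), and since the position of the mutation is not in the labels this checks nothing. Cells were grouped without using any collagen gene, and classes were named "X-like" from fixed markers, with 5 to 18 markers of each class at 2-fold or more over the other cells. TA labelled DMD held 1300 FAP/fibroblast-like and 277 tenocyte-like cells, against 6 and 4 in TA labelled WT, so these classes could not be compared between the TA libraries.

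Values are CPM, the UMIs of a gene per 1000000 UMIs of that class in that library, and intervals in parentheses are exact 95% Poisson intervals or, for folds, conditional exact intervals. They cover counting error only and treat every UMI as independent. Each UMI stands for a captured 3′ end, so a level is a count of molecules that is not scaled by transcript length. Levels of 2 genes are therefore set side by side only as proportions followed across cell classes.

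RNA released during digestion gives UMIs in cells that do not make a transcript. Its size was read from immune cells, pooled from the natural killer, T, macrophage/dendritic and mast-like classes. Their summed collagen level was 79.4 CPM in EOM labelled DMD, 72.6 CPM in EOM labelled WT, 623 CPM in TA labelled DMD and 91.4 CPM in TA labelled WT. TA labelled DMD therefore carried the highest level of collagen transcripts in immune cells, and values in that library are set beside this level below. Whether immune cells make any of these transcripts themselves was not tested.

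Collagen transcripts made up 3897 CPM of all analysed UMIs in EOM labelled DMD, 5346 CPM in EOM labelled WT, 3674 CPM in TA labelled DMD and 1869 CPM in TA labelled WT. Of the 42 members, 41 had a UMI in the analysed cells, and Col23a1 had none. In cell classes of at least 50 cells, 15 members reached 200 CPM, another 11 reached 50 CPM and 16 stayed lower. These rankings leave out the neutrophil-like class, which reached 50 cells in TA labelled DMD alone (52 cells) and where 1 cell held 831 collagen UMIs. Of the 15, 8 had their highest level in FAP/fibroblast-like cells, 3 in tenocyte-like, 2 in Schwann-like, 1 in mural-like and 1 in satellite-like cells. Endothelial-like cells were the highest class for none of them, although they held more cells than any other class. By structure, 5 of 10 fibril-forming, 4 of 9 FACIT and related, 2 of 6 type IV, 2 of 5 type VI and both multiplexin genes were among the 15, and none of the short-chain, transmembrane or anchoring genes were. With the neutrophil-like class kept, Col1a1 (6550 CPM), Col5a3 (562.5 CPM) and Col18a1 (412.5 CPM) would be highest in it, and without that cell they stood at 374.7, 0 and 102.2 CPM there.

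Leaving out the neutrophil-like class, with 12840 CPM in TA labelled DMD and 3338 CPM without the cell named above, the summed collagen level was highest in FAP/fibroblast-like cells. It was 8141 CPM in EOM labelled DMD, 17960 CPM in EOM labelled WT and 12700 CPM in TA labelled DMD. Tenocyte-like cells had 7092 CPM in EOM labelled DMD and 7594 CPM in TA labelled DMD. Schwann-like cells had 3543 CPM in EOM labelled DMD and 3950 CPM in TA labelled DMD, the libraries with at least 50 such cells. Mural-like cells, the pericytes and smooth muscle cells around vessels, had 2278 CPM in EOM labelled DMD, 3391 CPM in EOM labelled WT, 2812 CPM in TA labelled DMD and 4148 CPM in TA labelled WT. In satellite-like cells, the muscle stem cells, the sums in that order were 977.1, 1537, 2294 and 1572 CPM, and in endothelial-like cells they were 893.5, 1353, 1339 and 1813 CPM. Myofibre-like barcodes had 33.7 CPM in EOM labelled DMD, 264.9 CPM in TA labelled DMD and 39.4 CPM in TA labelled WT, each under the immune cell level of its own library. In mural-like and endothelial-like cells both libraries labelled DMD were lower than the library labelled WT of their muscle, and in FAP/fibroblast-like cells so was the EOM library.

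Among fibril-forming genes, Col3a1 and Col1a1, which encode the chains of types III and I, set the FAP/fibroblast-like profile. Col3a1 stood at 3215 CPM (3163 to 3268) in EOM labelled DMD, 7594 CPM (7455 to 7735) in EOM labelled WT, with 4920 CPM (4840 to 5002) for TA labelled DMD. Col1a1 stood at 1869 CPM (1829 to 1909), 6102 CPM (5977 to 6229) and 2761 CPM (2701 to 2822) in the same libraries. EOM labelled DMD was the lowest of the 3 libraries for both genes, EOM labelled WT the highest, and no intervals overlapped. Col5a2, a chain of type V collagen that regulates fibril diameter, had 154.1, 273 and 402.4 CPM in that order, and Col5a3 had 138, 298.4 and 199.5 CPM. Col11a2, a chain of type XI, was a tenocyte-like gene, with 210.1 CPM in EOM labelled DMD and 27.6 CPM in TA labelled DMD.

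The beaded filament genes Col6a1 and Col6a2 encode chains of the type VI molecule, which contains both, and both peaked in FAP/fibroblast-like cells of TA labelled DMD. Col6a2 had 704.6 CPM in EOM labelled DMD, 1010 CPM in EOM labelled WT and 1166 CPM in TA labelled DMD. Col6a1 had 191.8, 192.7 and 518.8 CPM in that order. The 2 EOM libraries thus differed in Col6a2 and not beyond counting error in Col6a1.

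FACIT and related genes divided between classes. Col14a1, which binds fibrils in soft connective tissue, was a FAP/fibroblast-like gene with 63.7 CPM in EOM labelled DMD, 54.2 CPM in EOM labelled WT and 231.9 CPM in TA labelled DMD. Col12a1, a FACIT of tendon and ligament, and Col16a1 were highest in tenocyte-like cells. Col12a1 had 677.4 CPM there in EOM labelled DMD and 319.2 CPM in TA labelled DMD, and Col16a1 had 575 and 114.3 CPM. Col20a1 was the Schwann-like member, with 374.1 CPM (327 to 426.1) in EOM labelled DMD and 245.5 CPM (210.1 to 285.2) for TA labelled DMD. The libraries labelled WT had 44 and 26 Schwann-like cells, and Col20a1 there stood at 1188 CPM (1055 to 1334) in EOM and 995.1 CPM (814.7 to 1204) in TA. Both libraries labelled DMD were lower than both labelled WT, with intervals that did not overlap, in classes too small in WT to enter the contrasts.

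Col5a3 was also lower in both libraries labelled DMD than in both labelled WT in Schwann-like cells. It had 265.3 CPM in EOM labelled DMD, 602.5 CPM in EOM labelled WT, 432.2 CPM in TA labelled DMD and 1023 CPM in TA labelled WT. FAP markers were also present in Schwann-like cells: the 12 markers summed to 7610 CPM in EOM labelled DMD, 1308 CPM in EOM labelled WT and 6475 CPM in TA labelled DMD, and their part in these levels was not tested.

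Of the type IV genes, Col4a1 was the member found in most classes. In mural-like cells it had 833.4 CPM (770.7 to 899.9) in EOM labelled DMD, 1179 CPM (1076 to 1288) in EOM labelled WT, 1072 CPM (1041 to 1104) for TA labelled DMD and 1424 CPM (1342 to 1510) in TA labelled WT. In endothelial-like cells it had 659.4, 971.4, 723 and 1298 CPM in that order. FAP/fibroblast-like cells had 396.5 CPM in EOM labelled DMD, 420.2 CPM in EOM labelled WT and 1184 CPM in TA labelled DMD. In both vessel classes and both muscles the library labelled DMD was below the library labelled WT.

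Its head-to-head partner Col4a2 was counted at 6.71 to 14.2 UMIs per 100 Col4a1 UMIs in FAP/fibroblast-like, mural-like and endothelial-like cells. The proportion was 7.34 in FAP/fibroblast-like cells of EOM labelled DMD, 7.48 in EOM labelled WT and 11.4 in TA labelled DMD. In mural-like cells it was 12.1, 7.77, 14.2 and 10.6 over EOM labelled DMD, EOM labelled WT, TA labelled DMD and TA labelled WT, and in endothelial-like cells 8.37, 6.71, 12.9 and 9.74. The library labelled DMD had the higher proportion within each muscle in both vessel classes, but in EOM the intervals overlapped. They were 9.47 to 15.3 and 5.43 to 10.8 in mural-like cells, and 6.68 to 10.4 and 5.38 to 8.28 in endothelial-like cells. In TA the intervals did not overlap in either class, and immune cells of TA labelled DMD had a proportion of 12.7 (8.61 to 18.2). These proportions rest on 3′ ends and do not give the ratio of the 2 chains, which are joined in the type IV molecule.

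Col4a4, which in the kidney is part of the adult glomerular basement membrane, was present in FAP/fibroblast-like, mural-like and satellite-like cells. FAP/fibroblast-like cells had 202.6 CPM in EOM labelled DMD, 248.3 CPM in EOM labelled WT and 149.1 CPM in TA labelled DMD. Its partner Col4a3 followed at 16.4, 19.4 and 9.26 UMIs per 100 Col4a4 UMIs in those libraries. Mural-like cells had 124, 192.8, 52.0 and 178.8 CPM of Col4a4 over EOM labelled DMD, EOM labelled WT, TA labelled DMD and TA labelled WT. TA labelled DMD was the lowest of the 4 there.

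The multiplexin Col15a1 separated the libraries in several classes. FAP/fibroblast-like cells had 524.1 CPM in EOM labelled DMD, 861.2 CPM in EOM labelled WT and 355.5 CPM in TA labelled DMD. Satellite-like cells had 278.6 CPM (250.1 to 309.5) in EOM labelled DMD, 588.8 CPM (535.6 to 645.9) in EOM labelled WT, 108.6 CPM (86.6 to 134.4) for TA labelled DMD and 414.7 CPM (348.4 to 490) in TA labelled WT. Endothelial-like cells had 51.6 CPM (41.2 to 63.8), 194.8 CPM (172.6 to 219.1), 124.1 CPM (116.3 to 132.3) and 285.3 CPM (268.8 to 302.6) in that order. In FAP/fibroblast-like cells of EOM, and in satellite-like and endothelial-like cells of both muscles, the library labelled DMD lay below the library labelled WT with no overlap of intervals. Mural-like cells of TA had the opposite order at a low level, 29.3 CPM (24.4 to 35.0) in TA labelled DMD and 3.81 CPM (0.785 to 11.1) in TA labelled WT. Both values were under the Col15a1 level of immune cells, 30.83 CPM (22.65 to 40.99) in TA labelled DMD and 18.27 CPM in TA labelled WT. The source of the mural-like order was not tested.

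Col18a1, the other multiplexin and the precursor of endostatin, had its highest value in the satellite-like class of TA labelled DMD, among classes of at least 50 cells. That class had 88.3 CPM in EOM labelled DMD, 135.1 CPM in EOM labelled WT, 263.7 CPM in TA labelled DMD and 189.3 CPM in TA labelled WT. It was not the highest class in either EOM library. Schwann-like cells were higher in EOM labelled DMD, at 178.0 CPM. FAP/fibroblast-like cells were higher in EOM labelled WT, at 145.9 CPM, which lay inside the satellite-like interval there (110.3 to 163.8). Within satellite-like cells of TA the 2 multiplexins thus stood in opposite order between the libraries, Col15a1 lower and Col18a1 1.39-fold higher (1.05 to 1.88) in TA labelled DMD.

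The 11 members that peaked between 50 and 200 CPM were Col4a2, Col4a5, Col5a1, Col6a6, Col7a1, Col8a1, Col8a2, Col11a1, Col13a1, Col19a1 and Col28a1. Col11a1, Col8a2 and Col13a1 peaked in tenocyte-like cells, Col4a2, Col4a5 and Col7a1 in mural-like cells, Col5a1, Col6a6 and Col8a1 in FAP/fibroblast-like cells and Col28a1 in Schwann-like cells. The peak of Col19a1, 55.4 CPM in myofibre-like barcodes of TA labelled DMD, came from 9 UMIs that were all in 1 cell. The 16 lower members included Col4a3 (48.2 CPM at most) and Col6a5 (31.5 CPM), both in FAP/fibroblast-like cells of EOM labelled WT. The others, at most 24.7 CPM each, were Col2a1, Col4a6, Col6a4, Col9a1, Col9a2, Col9a3, Col10a1, Col17a1, Col22a1, Col23a1, Col24a1, Col25a1, Col26a1 and Col27a1. Counting Col23a1, 10 members had under 50 UMIs in all analysed cells, too few to describe by class.

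Differences between libraries were counted over pairs of gene and class. A gene entered in a class with at least 50 cells in both libraries if it had 50 CPM or more in 1 of them, and it was counted as higher or lower when the log2 ratio, with a prior of 10 CPM on both sides, reached 1 or -1, a 2-fold limit. The same count over all genes is given as the background.

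The first comparison set EOM labelled DMD against EOM labelled WT, which bears on muscles that are known to be relatively spared in Duchenne muscular dystrophy. More collagen genes were lower in EOM labelled DMD than higher. Over 4 classes, 1 of 41 pairs was higher and 10 were lower, against a background of 2.21% higher and 1.7% lower over all genes, 3.91% in either direction. The median log2 ratio of the members was -0.49 in FAP/fibroblast-like, -0.55 in mural-like, -0.55 in endothelial-like and -0.56 in satellite-like cells. The medians of all genes in these classes lay between -0.14 and -0.06, above the member medians. The members entered numbered 17, 12, 3 and 9 in that order, and the endothelial-like median is the value of Col4a1. Summed over the members, EOM labelled DMD was 2.21-fold lower in FAP/fibroblast-like cells, 1.49-fold lower in mural-like, 1.52-fold lower in endothelial-like and 1.57-fold lower in satellite-like cells. With members counted only at 2 times or more the level over all cells of 1 of the libraries, a guard against free RNA, 4 of 23 pairs were lower and 0 higher, against 3.97% and 2.44% of all genes under the same guard.

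In FAP/fibroblast-like cells, 3 of 17 members entered were lower and none was higher, against backgrounds of 1.07% lower and 1.07% higher. Col1a1, at 1869 CPM in EOM labelled DMD against 6102 CPM in EOM labelled WT, was 3.27-fold lower (3.17 to 3.36). Col3a1 was 2.36-fold lower (2.31 to 2.42) and Col5a3 2.16-fold lower (1.91 to 2.45). All 3 are fibril-forming, and Col5a1, a chain found together with Col5a2 in type V collagen, was just inside the limit at 84.2 CPM against 175.3 CPM. With a minimum of 1000 UMIs per cell Col5a3 fell short of the limit, at a log2 ratio of -0.94. Col6a1, Col4a1 and Col14a1 were close in the 2 libraries, with the values given above.

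The difference in fibril-forming genes was as large within the main cluster of the class. Cluster 30, led by Ces1d, Dcn, Lum, Mfap5 and Pi16, held 552 of the 674 FAP/fibroblast-like cells of EOM labelled DMD and 182 of the 219 of EOM labelled WT. Within it Col1a1 had 1887 CPM in EOM labelled DMD and 6209 CPM in EOM labelled WT, and Col3a1 had 3328 and 7843 CPM. The proportion of the 2 transcripts also differed: 58.1 Col1a1 UMIs per 100 Col3a1 UMIs (56.6 to 59.7) in EOM labelled DMD, against 80.4 (78.2 to 82.6) in EOM labelled WT. A single cell of EOM labelled WT held 2229 of the 9119 Col1a1 UMIs and 1192 of the 11349 Col3a1 UMIs of the class. Without it, a choice made after seeing the data, the proportion in EOM labelled WT was 67.8 (65.8 to 69.9). EOM labelled DMD was then 2.50-fold lower (2.42 to 2.58) for Col1a1, 2.15-fold lower (2.09 to 2.20) for Col3a1 and 1.95-fold lower for the sum over the members. Another cell of EOM labelled WT held 1231 Col3a1 UMIs. Without the cell with most Col3a1 UMIs in each library, Col3a1 was 2.18-fold lower (2.12 to 2.23). The fold without both of these cells of EOM labelled WT was not computed, so it is not known to pass the limit. Col3a1 had a UMI in 90.7% of FAP/fibroblast-like cells of EOM labelled DMD and 94.1% of those of EOM labelled WT, and in 80.7% and 88.0% once each cell was thinned to 1000 UMIs.

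**Figure D1:**
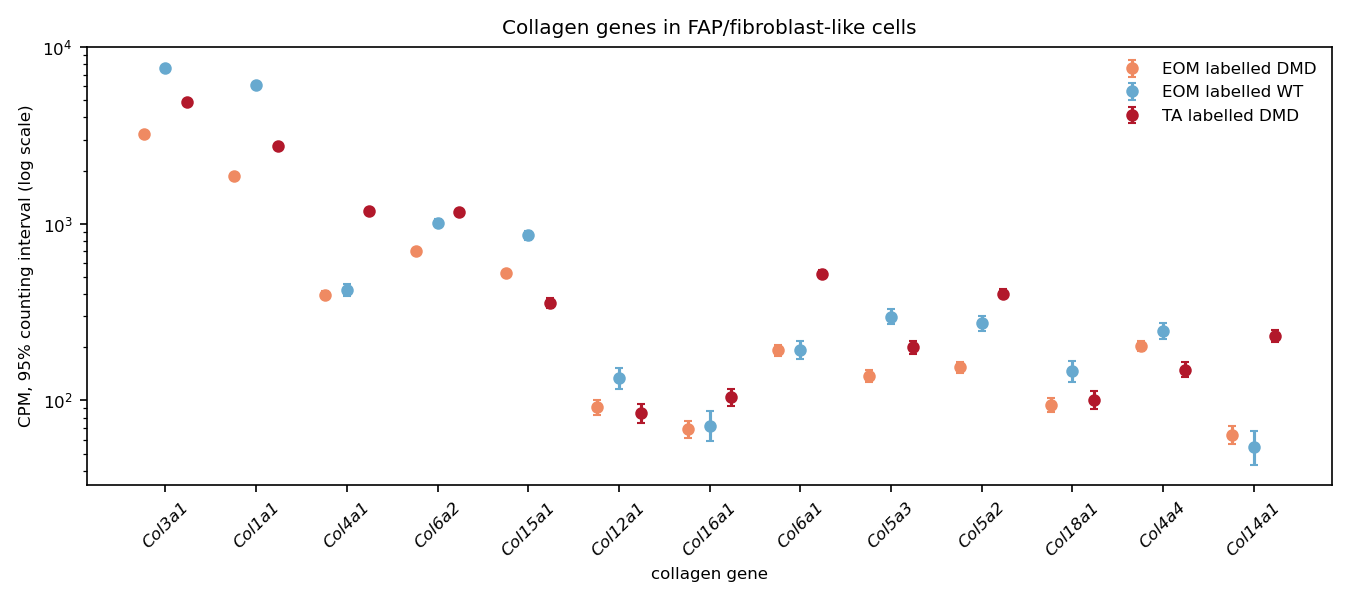
Levels of 13 collagen genes in FAP/fibroblast-like cells of EOM labelled DMD, EOM labelled WT and TA labelled DMD, as CPM on a log axis with exact 95% counting intervals (1 library per group). Col1a1 and Col3a1 were lowest in EOM labelled DMD, while Col4a1, Col6a1 and Col14a1 lay apart from both EOM libraries in TA labelled DMD.

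Mural-like cells had 4 of 12 members lower and none higher, against backgrounds of 2.41% and 4.34%. Col3a1 had 287.6 CPM in EOM labelled DMD against 674.9 CPM in EOM labelled WT, which was 2.35-fold lower (1.96 to 2.81). Col5a3 was 2.72-fold lower (1.83 to 4.08), Col7a1, the anchoring fibril collagen, 2.49-fold lower (1.44 to 4.37) and Col5a2 2.33-fold lower (1.49 to 3.68). Within cluster 8, led by the pericyte genes Kcnj8, Vtn and Rgs5, Col3a1 had 157.5 CPM in EOM labelled DMD and 672.9 CPM in EOM labelled WT. Col7a1 rested on 25 and 33 UMIs, and its log2 ratio was -0.66 within cluster 8 and -0.15 in cells thinned to 1000 UMIs.

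Among endothelial-like cells, Col15a1 was the lower member among 3 entered (backgrounds 0.973% lower and 1.74% higher). It had 85 UMIs, or 51.6 CPM, in EOM labelled DMD and 278 UMIs, or 194.8 CPM, in EOM labelled WT, 3.78-fold lower (2.95 to 4.88). Within cluster 18, the cluster with most of these cells in both libraries, Col15a1 had 58.5 CPM in EOM labelled DMD and 218.4 CPM in EOM labelled WT. Col4a1 was 1.47-fold lower and Col4a2 stood at 55.2 CPM against 65.2 CPM. Immune cells, as a measure of free RNA, had 2.80 CPM of Col15a1 in EOM labelled DMD and 13.2 CPM in EOM labelled WT.

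In satellite-like cells 2 of 9 members were lower and 1 was higher, against backgrounds of 2.33% and 1.42%. Col15a1 was 2.11-fold lower (1.83 to 2.44). Within cluster 21, which held 222 of the 225 cells of EOM labelled DMD and 132 of the 135 of EOM labelled WT, its log2 ratio was -0.99, just inside the limit, and it was -0.85 in thinned cells. Col1a1 had 11.2 CPM in EOM labelled DMD and 80.0 CPM in EOM labelled WT, 7.12-fold lower (3.94 to 13.8). Col3a1 went the other way, with 85.1 CPM in EOM labelled DMD and 24.9 CPM in EOM labelled WT, 3.42-fold higher (2.08 to 5.90). Immune cells had 11.7 and 8.25 CPM of Col1a1 and 22.4 and 18.2 CPM of Col3a1 in these libraries, so the higher of the 2 satellite-like values was above the immune level for each gene. A Col3a1 UMI was found in 21.3% of satellite-like cells of EOM labelled DMD and 10.4% of those of EOM labelled WT, against 10.4% and 17.0% of macrophage/dendritic-like cells. For Col1a1 the shares were 3.56% and 20.7%, against 3.05% and 2.13%, and the macrophage/dendritic-like class of EOM labelled WT held 47 cells. The median UMI count was 5137 and 5767 in the satellite-like cells and 8925.5 and 7429 in the macrophage/dendritic-like cells.

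The second comparison set TA labelled DMD against TA labelled WT. Over 5 classes, 17 of 40 pairs were higher and 5 lower, against a background of 20.6% higher and 6.19% lower, 26.8% in either direction. Of the 17, 10 were in erythroid-like cells, where all 10 members entered were higher and so were 95.6% of all genes entered (2.11% were lower), and the median of all genes was 2.68 on the log2 scale. These cells summed to 1918 CPM of collagen in TA labelled DMD and 75.6 CPM in TA labelled WT, and the members' count there is no different from the background. Without the erythroid-like cells, a choice made after seeing the data, 7 of 30 pairs were higher and 5 lower, against 8.08% and 6.87% of all genes. Counting only members at 2 times or more the level over all cells of 1 of the libraries, a guard against free RNA, left 1 of 16 pairs higher and 4 lower, against 8.19% and 24.1% of all genes, a share of lower members near the background.

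Endothelial-like cells had 2 members higher and 1 lower among 5, with backgrounds of 5.49% and 4.08%. Col15a1 had 124.1 CPM in TA labelled DMD and 285.3 CPM in TA labelled WT, 2.30-fold lower (2.11 to 2.51), the same direction as in EOM. Within cluster 12, led by Ca4, it had 92.4 CPM in TA labelled DMD and 362.2 CPM in TA labelled WT. Within cluster 18 it had 103.1 CPM against 188.5 CPM, a log2 ratio of -0.81 that does not reach the limit. The clusters were filled unequally, cluster 12 holding 141 of the 2704 endothelial-like cells from TA labelled DMD and 882 of the 1564 of TA labelled WT. Col4a1 was 1.80-fold lower (1.73 to 1.87), inside the limit.

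The 2 higher members in endothelial-like cells were the fibroblast collagens. Col3a1 had 1103 UMIs, or 146.2 CPM, in TA labelled DMD and 14 UMIs, or 3.598 CPM, in TA labelled WT, 40.6-fold higher (24.1 to 74.6). Col1a1 had 79.9 CPM in TA labelled DMD and 4.63 CPM in TA labelled WT, 17.3-fold higher (10.8 to 29.4). Immune cells of TA labelled DMD had 133.1 CPM of Col3a1 and 80.0 CPM of Col1a1, nearly the endothelial-like values, and immune cells of TA labelled WT had 0 and 1 UMI. The 12 FAP markers summed to 1210 CPM in endothelial-like cells of TA labelled DMD, with all 12 detected, and to 189.4 CPM in TA labelled WT, with 9 detected, and their part was not tested. Cluster 0, led by Plvap and Selp and holding 764 cells of TA labelled DMD, had 318.9 CPM of Col3a1, while clusters 18, 6 and 12 of the same library had 18.2, 33.8 and 12.8 CPM.

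The proportion of Col1a1 to Col3a1 UMIs was also set side by side across the classes. In TA labelled DMD, FAP/fibroblast-like cells had 56.1 Col1a1 UMIs per 100 Col3a1 UMIs (54.6 to 57.7), endothelial-like cells 54.7 (49.4 to 60.4) and immune cells 60.1 (47.6 to 75.6). Mural-like cells had 19.9 (17.9 to 22.1) and satellite-like cells 17.3 (13.7 to 21.5). Endothelial-like and immune cells had the FAP/fibroblast-like proportion within counting error, and mural-like and satellite-like cells did not. For Col6a2 the proportion was 23.7 per 100 Col3a1 UMIs in FAP/fibroblast-like, 25.0 in endothelial-like, 22.3 in satellite-like, 43.3 in immune and 50.4 in mural-like cells, which gave another grouping of the classes. The source of these UMIs was not tested.

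**Figure D2:**
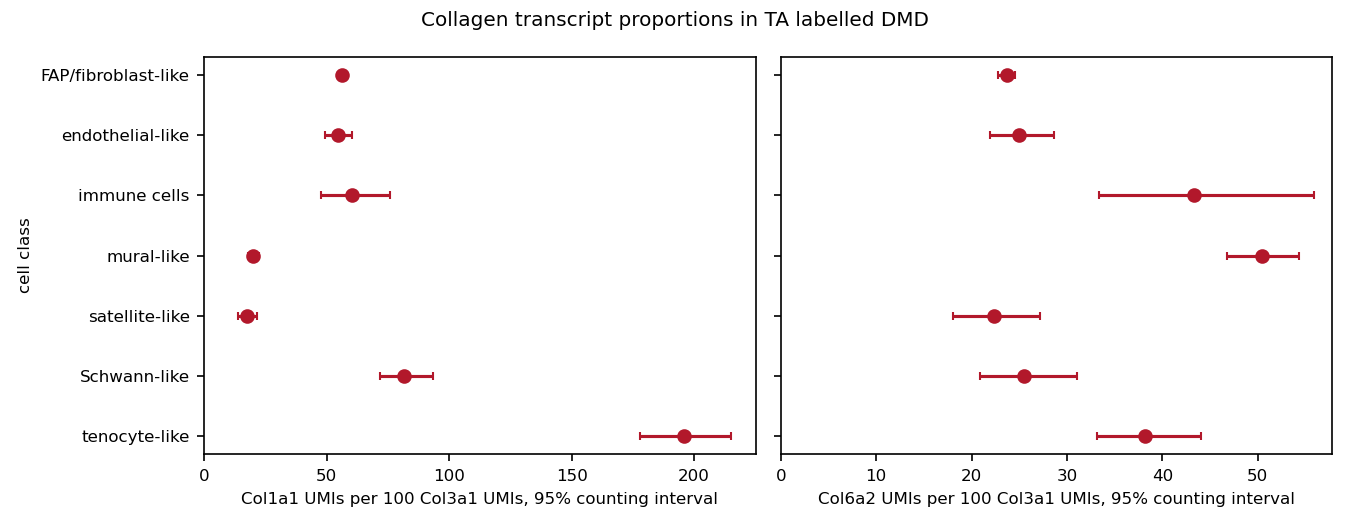
UMIs of Col1a1 and of Col6a2 per 100 UMIs of Col3a1 by cell class in TA labelled DMD, with exact 95% counting intervals. For Col1a1 the endothelial-like (54.7) and immune cells (60.1) lay at the FAP/fibroblast-like value (56.1), and mural-like (19.9) and satellite-like cells (17.3) lay below it.

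In satellite-like cells 3 members were higher and 2 lower among 11 (backgrounds 5.71% and 5.66%). Col3a1 had 539 UMIs, or 696.7 CPM, in TA labelled DMD and 0 UMIs in TA labelled WT, which is at least 77.3-fold higher against a floor of 3 counts per library. Col1a1 had 93 UMIs in TA labelled DMD and 2 in TA labelled WT, a ratio of 20 (5.38 to 168). Col6a1 had 62.0 CPM against 15.03 CPM, 4.13-fold higher (1.65 to 13.3). TA labelled WT held 56 satellite-like cells and a UMI of Col3a1 in 0 of them, which allows a share of cells with a UMI of up to 6.38% by the exact interval and sets no limit on the share of cells that express the gene.

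Col3a1 stood above the immune cell level in the satellite-like cells from TA labelled DMD, and Col1a1 did less so. Satellite-like cells had 696.7 CPM of Col3a1, 577.3 CPM without the cell with most of its UMIs, and 120.2 CPM of Col1a1. Erythroid-like cells of that library had 481.9 CPM of Col3a1 and 258.8 CPM of Col1a1. Neutrophil-like cells, without the cell named above, had 647.1 and 374.7 CPM. Whether either gene stood above free RNA thus depends on the class used to read it. A Col3a1 UMI was found in 44.7% of satellite-like cells (39.1 to 50.5), against 16.4% of macrophage/dendritic-like cells (13.4 to 19.7), and thinned to 1000 UMIs the shares were 34.0% and 12.2%. The thinning left out 145 of 304 satellite-like and 237 of 574 macrophage/dendritic-like cells. The median UMI count was 1047.5 in satellite-like and 1137.5 in macrophage/dendritic-like cells. For Col1a1 the shares were 12.5% and 10.6%, and 6.92% and 8.9% when thinned, so this share was at the level of the background. Dcn, a FAP marker, had 421.4 CPM in satellite-like cells and 574.4 CPM in macrophage/dendritic-like cells of TA labelled DMD, and 3.005 CPM, from 1 UMI, in satellite-like cells of TA labelled WT. The 12 FAP markers summed to 3711 CPM, with 11 detected, in the satellite-like cells from TA labelled DMD and to 2891 CPM, with 5 detected, in those of TA labelled WT, and their part in the higher members was not tested.

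The lower members in satellite-like cells of TA were Col15a1 and Col4a4. Col15a1 was 3.82-fold lower (2.89 to 5.07). Col4a4 had 14 UMIs, or 18.1 CPM, in TA labelled DMD and 47 UMIs, or 141.2 CPM, in TA labelled WT, 7.81-fold lower (4.23 to 15.4). Within cluster 21, with 65 and 50 cells, Col15a1 had 148.9 CPM against 424.7 CPM and Col4a4 21.9 CPM against 141.6 CPM. The other satellite-like cells of TA labelled DMD, 239 of the 304, were in cluster 16, which held 6 cells of TA labelled WT, and Col15a1 there stood at 50.5 CPM.

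**Figure D3:**
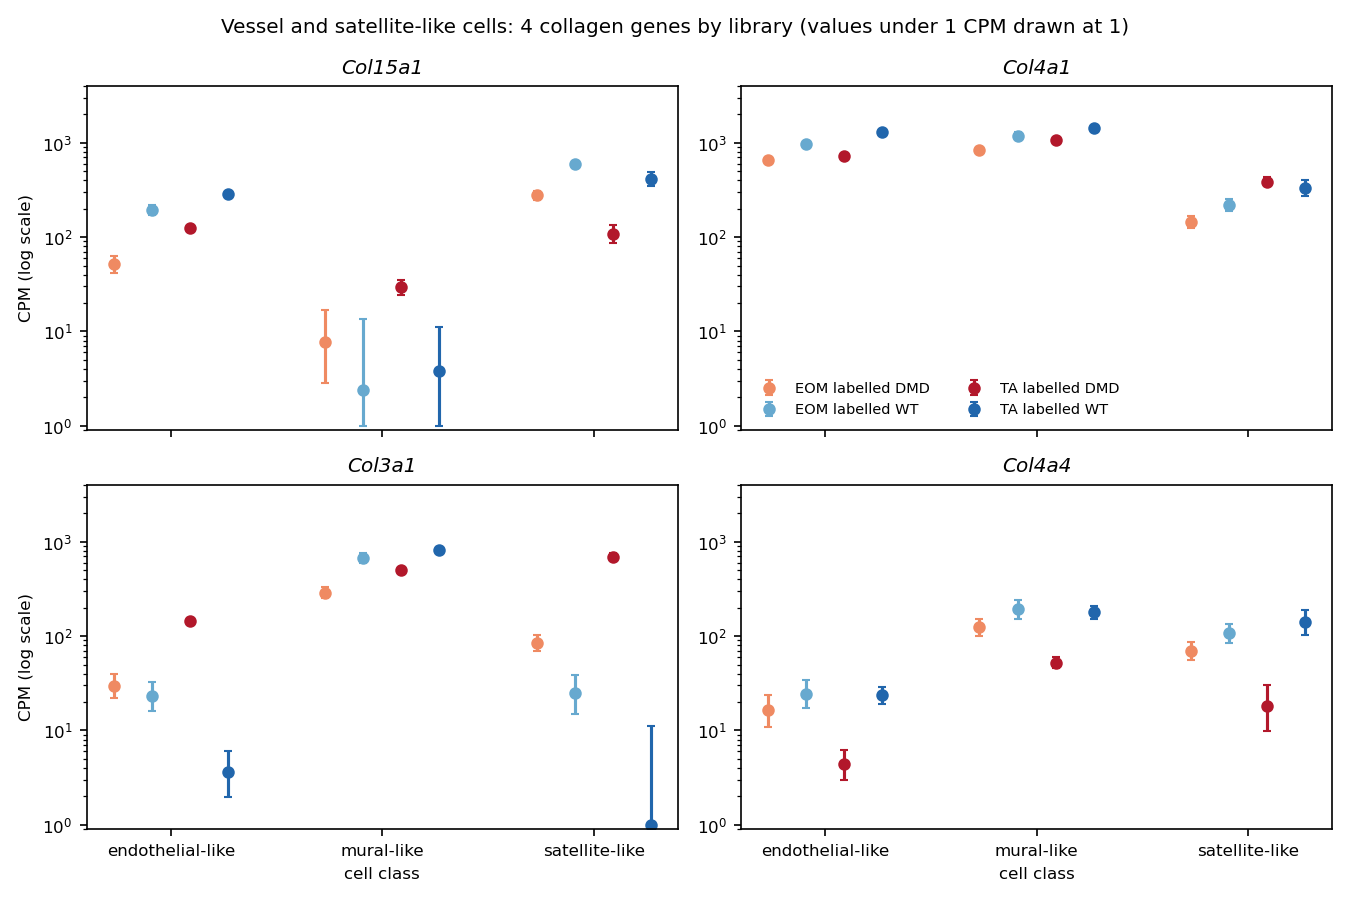
Levels of Col15a1, Col4a1, Col3a1 and Col4a4 in endothelial-like, mural-like and satellite-like cells of EOM labelled DMD, EOM labelled WT, TA labelled DMD and TA labelled WT, as CPM on a log axis with exact 95% counting intervals and values under 1 drawn at 1. Col15a1 lay lower in the library labelled DMD of both muscles in endothelial-like and satellite-like cells, and Col3a1 in satellite-like cells stood at 696.7 CPM in TA labelled DMD and 0 CPM in TA labelled WT.

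Mural-like cells of TA had 2 members lower and none higher among 12 (backgrounds 4.07% and 6.32%). Col4a4 was 3.44-fold lower (2.76 to 4.27) and Col6a6, a type VI chain, was 3.55-fold lower (2.46 to 5.09), with 18.9 CPM in TA labelled DMD and 67.2 CPM in TA labelled WT. Within cluster 8 Col4a4 had 121.4 CPM in TA labelled DMD against 258.3 CPM in TA labelled WT, a log2 ratio of -1.03, and Col6a6 did not reach the limit, at -0.83. The 12 FAP markers summed to 3823 CPM in mural-like cells from TA labelled DMD and 1711 CPM in those of TA labelled WT, and their part was not tested. Cluster 8 held 259 of the 1684 mural-like cells from TA labelled DMD and 125 of the 179 of TA labelled WT. Of 12 and 12 mural members entered in TA and EOM, 11 entered in both and 0 were past the limit in both. The share of all genes past the limit in both muscles is not set beside this count, so it is not read as a result about the members.

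Myofibre-like barcodes had both members entered higher in TA labelled DMD, Col4a1 at 73.9 CPM against 8.74 CPM and Col19a1, the 9 UMIs of 1 cell, against 0, with backgrounds of 19.4% higher and 18.3% lower. Col4a1 there was under the 175.8 CPM of immune cells in the same library, and with no doublets removed its log2 ratio was 0.77.

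Across the 2 muscles, Col15a1 was lower past the limit in both in endothelial-like cells (of 3 members entered in both) and in satellite-like cells (of 9). Col3a1 was higher in both in satellite-like cells. Col1a1 in satellite-like cells was higher in TA labelled DMD and lower in EOM labelled DMD, each against the library labelled WT of its muscle. Whether the muscles differ was not tested, since each holds 1 library per group. The share of all genes past the limit in both muscles is not set beside these members, so they are described as single genes.

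The third comparison set EOM labelled DMD against TA labelled DMD, the eye muscle against the limb muscle. It shares its libraries with the comparisons above. Over 8 classes, 9 of 84 pairs were higher in EOM and 28 lower, against a background of 4.93% higher and 6.57% lower, 11.5% in either direction. With the guard against free RNA, 5 of 39 pairs were higher and 11 lower, against 17.2% and 6.62% of all genes under it.

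Tenocyte-like cells, which carry the genes of tendon, had the widest spread, with 5 members higher and 6 lower among 19 (backgrounds 6.75% and 9.26%). Higher in EOM were Col11a2, with 80 UMIs, or 210.1 CPM, against 14 UMIs, or 27.6 CPM, in TA, 7.62-fold (4.29 to 14.6), and Col16a1, at 5.03-fold (3.75 to 6.84). Col8a2, a short-chain collagen, was 5.20-fold higher (2.55 to 11.7), Col14a1 4.44-fold higher (1.72 to 13.5) and Col12a1 2.12-fold higher (1.74 to 2.60). All 3 FACIT and related members entered were among them, but Col14a1 reached 50 CPM in EOM alone, with 20 UMIs there and 6 in TA. The count is therefore not read as a result about FACIT genes. Col1a1 had 3658 CPM in EOM labelled DMD and 2682 CPM in TA labelled DMD, and Col11a1 had 196.9 and 177.3 CPM, both within the limit.

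Lower in EOM tenocyte-like cells were Col4a1, Col4a2, Col18a1, Col6a1, Col5a3 and Col3a1. Col4a1 had 76.2 CPM in EOM labelled DMD and 1001 CPM in TA labelled DMD, 13.1-fold lower (9.04 to 19.8). Col4a2 had 0 and 54 UMIs, at least 13.5-fold lower. Col18a1 was 3.83-fold lower, Col6a1 3.09-fold, Col5a3 2.54-fold and Col3a1 2.30-fold lower. For each 100 Col3a1 UMIs there were 614 Col1a1 UMIs (533 to 709) in EOM labelled DMD and 196 (178 to 215) in TA labelled DMD.

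Depth and markers of other cells moved with these values. The median UMI count of tenocyte-like cells was 5871 in EOM labelled DMD and 1026 in TA labelled DMD. The 9 endothelial markers summed to 15.8 CPM, with 2 detected, in EOM labelled DMD and to 1030 CPM, with all 9 detected, in TA labelled DMD, beside 14.5 and 175.8 CPM of Col4a1 in immune cells, and their part was not tested. With at least 1000 UMIs per cell, 53 and 66 cells remained, and the log2 ratio of Col4a1 was -3.53, of Col16a1 2.29 and of Col11a2 2.26, while Col12a1 was inside the limit at 0.77. In cells thinned to 1000 UMIs Col11a2 was just inside it at 0.98 and Col14a1 reversed to -0.19. At a Leiden resolution of 0.5 the TA class held 41 cells and could not be compared. The EOM library labelled WT had 15 tenocyte-like cells, and their Col16a1, Col11a2 and Col4a1 levels were 466.1, 252.4 and 38.8 CPM.

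**Figure D4:**
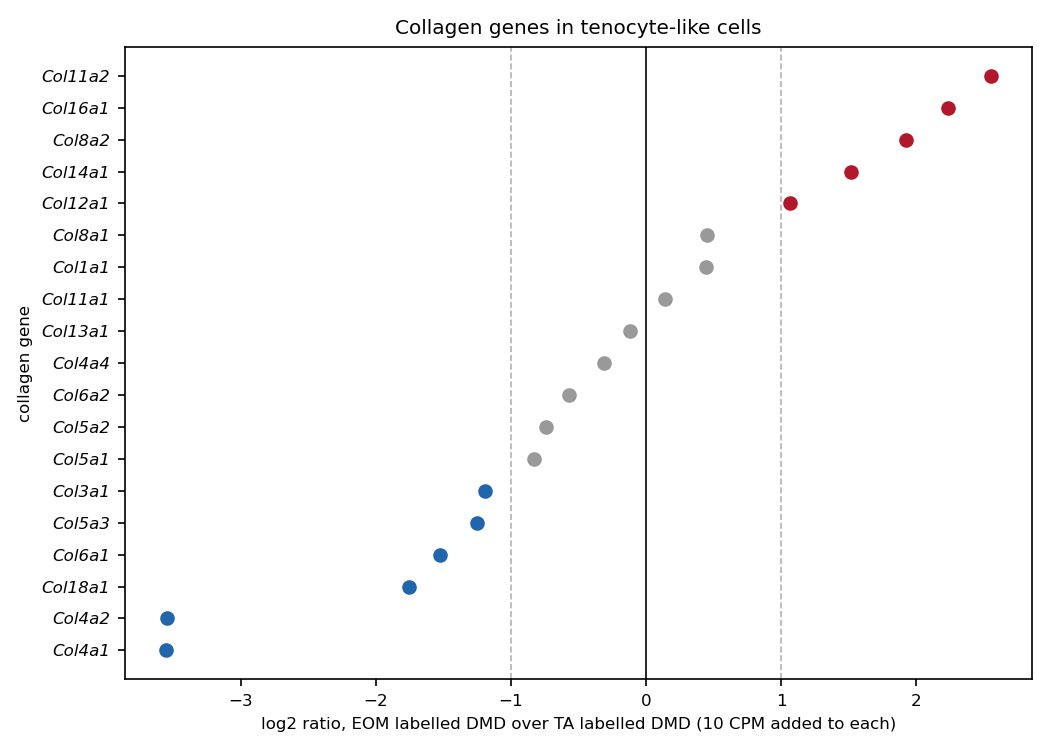
Log2 ratio of EOM labelled DMD over TA labelled DMD in tenocyte-like cells (60 and 277 cells) for the 19 collagen genes with at least 50 CPM in 1 of the 2 libraries, with a prior of 10 CPM and dashed lines at the 2-fold limit. Col11a2, Col16a1, Col8a2, Col14a1 and Col12a1 lay above the upper line and Col4a1, Col4a2, Col18a1, Col6a1, Col5a3 and Col3a1 below the lower one.

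In FAP/fibroblast-like cells, 1 of 18 members was higher in EOM and 6 were lower (backgrounds 3.68% and 4.48%). Col4a5 was higher, at 107.6 CPM in EOM labelled DMD and 40.4 CPM in TA labelled DMD, 2.66-fold (2.17 to 3.29). Col4a2 was 4.65-fold lower, Col14a1 3.64-fold, Col4a1 2.99-fold, Col6a1 2.71-fold, Col5a2 2.61-fold and Col8a1 2.27-fold lower. Col4a5 is X-linked and paired with Col4a6, which had 27 UMIs in all analysed cells. The 2 libraries filled different clusters: cluster 30 held 552 of the 674 EOM cells and 3 of the 1300 TA cells, and cluster 11, led by Apod, Myoc and Smoc2, held 5 and 1062. The median UMI count was 7030.5 and 940, and the endothelial markers summed to 26.7 CPM in EOM labelled DMD and 700.7 CPM in TA labelled DMD. Within this class, the part of these in the type IV difference was not tested.

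Satellite-like cells had 2 members higher and 6 lower in EOM among 10 (backgrounds 3.44% and 7.73%). Col15a1 was 2.57-fold higher (2.02 to 3.30) and Col4a4 3.86-fold higher (2.18 to 7.35). Col1a1 was 10.7-fold lower (6.07 to 20.3), Col3a1 8.19-fold lower (6.64 to 10.2), Col5a2 3.31-fold, Col18a1 2.99-fold, Col4a1 2.68-fold and Col5a3 2.66-fold lower. Of the 4 fibril-forming members entered, all 4 were lower in EOM, but Col1a1 and Col5a2 reached 50 CPM in TA alone. Col5a1, at 37.7 CPM in EOM and 41.4 CPM in TA, and Col11a1, at 9.64 and 46.5 CPM, did not enter. The count is therefore not read as a result about fibril-forming genes. Immune cells of EOM labelled DMD and TA labelled DMD had 11.7 and 80.0 CPM of Col1a1, 22.4 and 133.1 CPM of Col3a1 and 14.5 and 175.8 CPM of Col4a1. In the satellite-like cells the 9 endothelial markers summed to 20.9 CPM in EOM labelled DMD (8 detected) and 581.7 CPM in TA labelled DMD (9 detected), Dcn stood at 115.6 and 421.4 CPM, and their part in these differences was not tested. The 2 libraries again filled different clusters, 222 of 225 EOM cells in cluster 21 and 239 of 304 TA cells in cluster 16, and within cluster 21 the log2 ratio of Col15a1 was 0.93.

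Of the remaining classes, endothelial-like cells had 3 of 5 members lower in EOM (backgrounds 3.37% lower and 2.16% higher): Col1a1 11.0-fold, Col3a1 4.92-fold and Col15a1 2.41-fold. Within cluster 18 the log2 ratios of these genes were -0.29, -0.17 and -0.72, so none reached the limit there. Mural-like cells had Col4a4 2.38-fold higher and none lower among 11 (backgrounds 2.44% and 3.04%), a log2 ratio of 0.91 within 1 cluster. Schwann-like cells had Col28a1, a collagen known from peripheral nerve, 2.66-fold lower (1.58 to 4.65) as the only member past the limit among 15 (backgrounds 5.58% lower and 2.11% higher). Macrophage/dendritic-like cells had all 4 members entered lower in EOM (backgrounds 7.19% lower and 4.15% higher): Col4a1, Col6a2, Col1a1 and Col3a1, with 11.2 CPM of Col4a1 in EOM labelled DMD and 177.7 CPM in TA labelled DMD. These cells belong to the pooled immune cells from which free RNA was read, so the 4 pairs restate that level, and without them 9 of 80 pairs were higher and 24 lower (5.04% and 6.49% of all genes). Myofibre-like barcodes had Col4a1 and Col19a1 lower (backgrounds 15% lower and 20.2% higher).

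The last comparison, EOM labelled WT against TA labelled WT, had 1 of 25 pairs higher and 2 lower. The background was 1.33% higher and 2.51% lower, 3.84% in either direction. The pairs past the limit are too few to read as a result about the members. In mural-like cells, Col18a1 was 2.46-fold lower and Col6a6 2.54-fold lower in EOM among 13 members (backgrounds 1.7% lower and 1.37% higher). Col18a1 had 65.1 CPM in EOM labelled WT and 159.8 CPM in TA labelled WT, and Col6a6 had 26.5 and 67.2 CPM. In satellite-like cells, Col1a1 had 61 UMIs, or 80.0 CPM, in EOM labelled WT and 2 UMIs in TA labelled WT (background 1.99% higher and 3.27% lower). None of the 3 members entered in endothelial-like cells was past the limit (backgrounds 0.654% higher and 0.597% lower), and no member entered in erythroid-like cells (1.24% and 31.4%). Of the members past the limit here, Col6a6 and Col18a1 in mural-like cells stood at 16.6 and 79.3 CPM in EOM labelled DMD and 18.9 and 116.8 CPM in TA labelled DMD, within the limit.

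Genes that process, bind or sense collagen were counted in 4 lists, made of intracellular enzymes and chaperones, of propeptide removal and crosslinking, of collagen receptors and of fibril-binding proteoglycans and glycoproteins. In FAP/fibroblast-like cells of EOM, where fibrillar collagen was lower in the library labelled DMD, 0 of 11 enzyme genes, 0 of 7 propeptide and crosslinking genes and 0 of 4 receptors were past the limit, with median log2 ratios of -0.14, -0.55 and -0.16. The share of all genes past the limit there was also small, 1.07% higher and 1.07% lower. Of 11 proteoglycans and glycoproteins 1 was lower, Kera, a keratan sulphate proteoglycan that is also a tenocyte marker here, at 25.4 CPM in EOM labelled DMD and 108.4 CPM in EOM labelled WT. In the mural-like cells of EOM none of the 19 list genes entered was past the limit (backgrounds 4.34% higher and 2.41% lower). In endothelial-like cells Fn1, fibronectin, was higher, at 61.9 CPM in EOM labelled DMD and 23.1 CPM in EOM labelled WT, and in satellite-like cells Tgm2, a transglutaminase, was lower, at 20.1 CPM against 55.1 CPM.

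The TA comparison of the libraries labelled DMD and WT had more list genes past the limit, and more of all genes as well. Of all genes in endothelial-like cells, 5.49% were higher and 4.08% lower in TA, against 1.74% and 0.973% in EOM. The shares were 5.71% and 5.66% against 1.42% and 2.33% in satellite-like cells. They were 6.32% and 4.07% against 4.34% and 2.41% in mural-like cells. In endothelial-like cells Sparc, a collagen-binding protein of basement membranes, had 1819 CPM in TA labelled DMD and 4588 CPM in TA labelled WT, 2.52-fold lower, as the 1 of 2 genes of its list. In satellite-like cells Lox, which crosslinks collagen, had 128 CPM in TA labelled DMD and 9.02 CPM in TA labelled WT, and Pcolce, an enhancer of propeptide removal, had 218 and 33.1 CPM. Bmp1, the enzyme that removes the propeptide, went the other way with 105 and 231 CPM. Among 5 proteoglycans and glycoproteins there, Dcn, Ogn and Postn were higher and Fn1 was lower, at 99.5 CPM in TA labelled DMD and 364 CPM in TA labelled WT. None of the 9 enzyme genes entered was past the limit. In mural-like cells, the receptor Adgrg1 had 116 CPM in TA labelled DMD and 8.88 CPM in TA labelled WT, and Dcn and Thbs4 were higher as well. Dcn reached 318.3 CPM in the mural-like and 421.4 CPM in the satellite-like class of TA labelled DMD. Macrophage/dendritic-like cells of that library had more, 574.4 CPM, so neither Dcn level is read as above free RNA.

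In tenocyte-like cells of EOM labelled DMD against TA labelled DMD, 4 of 12 proteoglycans and glycoproteins were higher and 3 lower (backgrounds 6.75% and 9.26%). Kera had 6181 CPM in EOM labelled DMD and 303 CPM in TA labelled DMD, and Aspn, asporin, had 591 and 104 CPM. Postn, periostin, had 2.63 CPM in EOM labelled DMD and 615 CPM in TA labelled DMD. Dcn and Lum were higher and Thbs4 and Fn1 lower, and of these lists Kera, Thbs4, Dcn and Lum also served to name classes. Tgm2, a crosslinking enzyme, had 218 CPM in EOM labelled DMD and 35.5 CPM in TA labelled DMD, Adamts2, which removes a propeptide, was also higher, and the enzyme Plod2 was lower and the regulator Creb3l1 higher among 9 enzyme genes. Of 6 receptors, Ddr2 was higher and Itga10, Itgb1 and Adgrg1 were lower. In FAP/fibroblast-like cells of the same libraries none of 9 enzyme and 7 propeptide and crosslinking genes was past the limit (backgrounds 3.68% higher and 4.48% lower). Ddr2, Dcn and Lum were higher in EOM there, and Adgrg1, Prelp, Thbs2 and Thbs4 were lower.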

How the data were processed

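Cells were freed by enzymatic digestion and profiled with 10x 3′ chemistry version 3.1, per the labels' protocols. Per the file headers, the authors counted reads with Cell Ranger 4.0.0, on build rn6 according to the submitters' processing notes. The files as deposited hold raw counts, whole numbers of unique molecular identifiers (UMIs) for each gene in each barcode. The disease state field set the groups, and the titles contradict it.

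Barcodes with at least 500 UMIs, at least 200 genes and at most 20% mitochondrial UMIs (13 genes) were kept. The highest scrublet scores were removed as doublets up to 0.8% per 1000 cells, which took out 42 cells of EOM labelled DMD, 13 of EOM labelled WT, 585 of TA labelled DMD and 36 of TA labelled WT. All libraries were clustered together with no integration and with the collagen genes left out (2000 variable genes, 30 principal components, 15 neighbours, Leiden resolution 1.0), which gave 32 clusters. A cluster was named from markers of 20 classes if at least 3 of a class were 2-fold over the median cluster and found in 10% of its cells. This rule for names was set with the clusters in view, and 2 clusters stayed unnamed. UMIs were summed per class and library and given as counts per 1000000 (CPM). Neutrophil-like cells were left out of the pooled immune cells and of the rankings of classes after it was seen that 1 cell held 502 of their 524 Col1a1 UMIs in TA labelled DMD.

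The members and gene lists were chosen with earlier results of these data known. Members at 200 CPM in a class are given with every library, and up to 5 past the 2-fold limit in each direction per contrast and class are named. Of the lists, the genes with the largest ratios past the limit are named. Analyses used Python 3.11.15, numpy 2.4.6, scipy 1.17.1, pandas 2.3.3, scanpy 1.11.5 and igraph 0.11.9. Each group is 1 library, so no statistical test was run.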

Additional observations from a re-analysis of the deposited data

Results flagged for a closer look

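Col1a1 in satellite-like cells stood in opposite order in the 2 muscles. Its log2 ratio was -2.08 for EOM labelled DMD over EOM labelled WT and 3.02 for TA labelled DMD over TA labelled WT. The UMI counts were 14 and 61 in EOM and 93 and 2 in TA. With 1 library per group the difference between the muscles was not tested.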

How the results depend on the processing

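No paired analysis was possible because each group is 1 library, and for the same reason no replicate could be left out. Under a stricter cell filter (1000 UMIs, 10% mitochondrial UMIs), with fewer classes of 50 cells, the pairs past the 2-fold limit numbered 6 against 11 in EOM labelled DMD over WT, 13 against 22 in TA and 0 against 3 in EOM over TA labelled WT. The guard against free RNA gave 4 of 23 and 5 of 16 pairs entered in the first 2. It gave 16 of 39, against 37 of 84, in EOM over TA labelled DMD, where Leiden resolution 0.5 gave 24. EOM over TA labelled WT gave 5 with each library clustered alone, 9 with a minimum of 20 CPM and 6 in thinned cells. Leaving out erythroid-like and macrophage/dendritic-like cells, chosen after seeing the data, gave 12 of 30 in TA. For the settings without a number of pairs entered, the share of all genes is not given either. Those counts are therefore not rates and do not show how stable the result is. Without the cell that held most UMIs of a gene in each class and library, also chosen after seeing the data, Col12a1 in tenocyte-like cells (0.99, EOM over TA labelled DMD) and Col19a1 in myofibre-like barcodes (0) no longer passed the limit. For 65 named pairs of gene and class, 824 values were recomputed, of which 792 were past the limit and 1 reversed, Col14a1 in tenocyte-like cells at -0.19 (log2, EOM over TA labelled DMD) in thinned cells. Pairs that did not enter under a setting gave no value, and only 25 entered under the guard and 48 under the stricter filter. A minimum of 20 CPM leaves a ratio unchanged and a prior of 1 CPM only widens it. The 792 are therefore not a measure of stability. The count of members at 200 CPM was 15 or 16. The cause of the other shifts was not tested. In TA labelled DMD, a level at or under that of immune cells (623 CPM over all members) is not read as above free RNA, and its source was not tested.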
